A study of Oreochromis niloticus with 9 samples.

Results

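The livers of genetically improved farmed tilapia (GIFT, a selected strain of Nile tilapia, Oreochromis niloticus) fed the highest dose of apple peel powder (APP) were compared with those of fish fed a lower dose. The APP_H group received 0.8% APP in the feed and the APP_A group 0.2% APP, both for 8 weeks, and the comparison asks what separates the high dose from the dose the study named appropriate. The libraries were chosen by these diet labels, which write APE for APP. They were 6 of the 9 liver libraries of the series, 3 per dose. The other 3 libraries (C) came from fish on the basal diet without APP, and their values are given as background for some of the genes. All groups were juveniles of 1 strain kept under the same conditions and fed to apparent satiation. Their basal diet was the same except that APP took the place of cellulose, so the doses also differed in added cellulose. Several fish of a tank were pooled for each poly(A) library. A replicate is therefore such a pool (n = 3 per group), and the p-values measure the spread between these pools. Expression was deposited as FPKM (fragments scaled to transcript length and to all mapped fragments of the library), so the number of reads behind a value is unknown. Of 37283 loci, the 18065 that reached an FPKM of 1 in 3 or more of these 6 libraries were tested, 9033 of them with a gene symbol. Differences were tested with limma on log2(FPKM + 1), a scale that understates the change of low genes. A gene was called differentially expressed (DE) where its adjusted p was below 0.05 and its log2 fold change was 1 or more in size. Fold changes are APP_H vs. APP_A.

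The liver makes most plasma proteins, bile acids and lipoproteins, and it holds the enzymes that make, store and burn fatty acids and glucose. Hepatocytes therefore keep a large endoplasmic reticulum (ER) with chaperones that fold secreted proteins, and they follow feeding and hormones through clock genes and nuclear receptors. Resident macrophages and other leukocytes of the liver carry phagocytic receptors, lysosomal enzymes and the receptors of innate immunity. Apple peel is rich in fibre and in polyphenols.

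1 library stood apart from the rest. Across the genes tested, Pearson's r of log2(FPKM + 1) was 0.428 to 0.587 in the 5 pairs that hold APP_H3, against 0.670 to 0.781 in the 10 other pairs of APP_H and APP_A libraries. APP_H3 was the lowest of the 6 libraries for 31.3% of the genes and the highest for 29.3%, whereas each other library was the lowest for 8.22% to 13.9%. Its FPKM summed to 1226503, against 1941494 to 2532967 in the other APP_H libraries and 2145861 to 2330821 in the APP_A libraries. The mapped reads that the study reports for APP_H3 lay within the range of the other libraries. Counts of calls, list counts and list medians are therefore given with all 6 libraries and without APP_H3.

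The label of the tissue was checked against markers of hepatocytes and of the cells that lie in or near a fish liver. Hepatocyte genes were abundant in every library. The lipid-binding protein fabp10a had 23520.0, 6657 and 647 FPKM in APP_H and 10540.0, 12910.0 and 14492 FPKM in APP_A. The mean log2(FPKM + 1) of 40 hepatocyte loci was 9.19, 8.22 and 4.88 in APP_H, against 8.64 to 9.27 in APP_A. Exocrine pancreas, which fish carry in or beside the liver, had means of 9.07, 8.51 and 4.54 in APP_H and 8.75, 6.42 and 9.36 in APP_A. APP_H3 was thus the lowest library for both. It was the highest for erythroid markers (3.0, 4.07 and 5.40 in APP_H, 2.79 to 3.74 in APP_A) and for thrombocyte markers (1.77, 2.71 and 4.39 in APP_H, 1.56 to 2.12 in APP_A). All 40 hepatocyte loci had negative fold changes with all 6 libraries, and 21 of 40 without APP_H3. In pooled liver, fewer cells of a type and less RNA per cell cannot be told apart. Few muscle, kidney and intestine markers passed the filter (8, 16 and 7 loci), with 1, 0 and 0 above and 1, 2 and 0 below in every APP_H library, and 2, 0 and 2 above and 1, 3 and 2 below without APP_H3. A value of exactly 0 was no safe sign of absence in this table. The apolipoprotein gene apoa1a was listed at 0, 0 and 1895 FPKM in APP_H, at 30624, 0 and 43942 FPKM in APP_A, and at 0 in all 3 C libraries. Among the loci, 1279 were listed at 0 in at least 1 of the 6 libraries although the median of the other 5 was at least 10 FPKM.

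**Figure D1:**
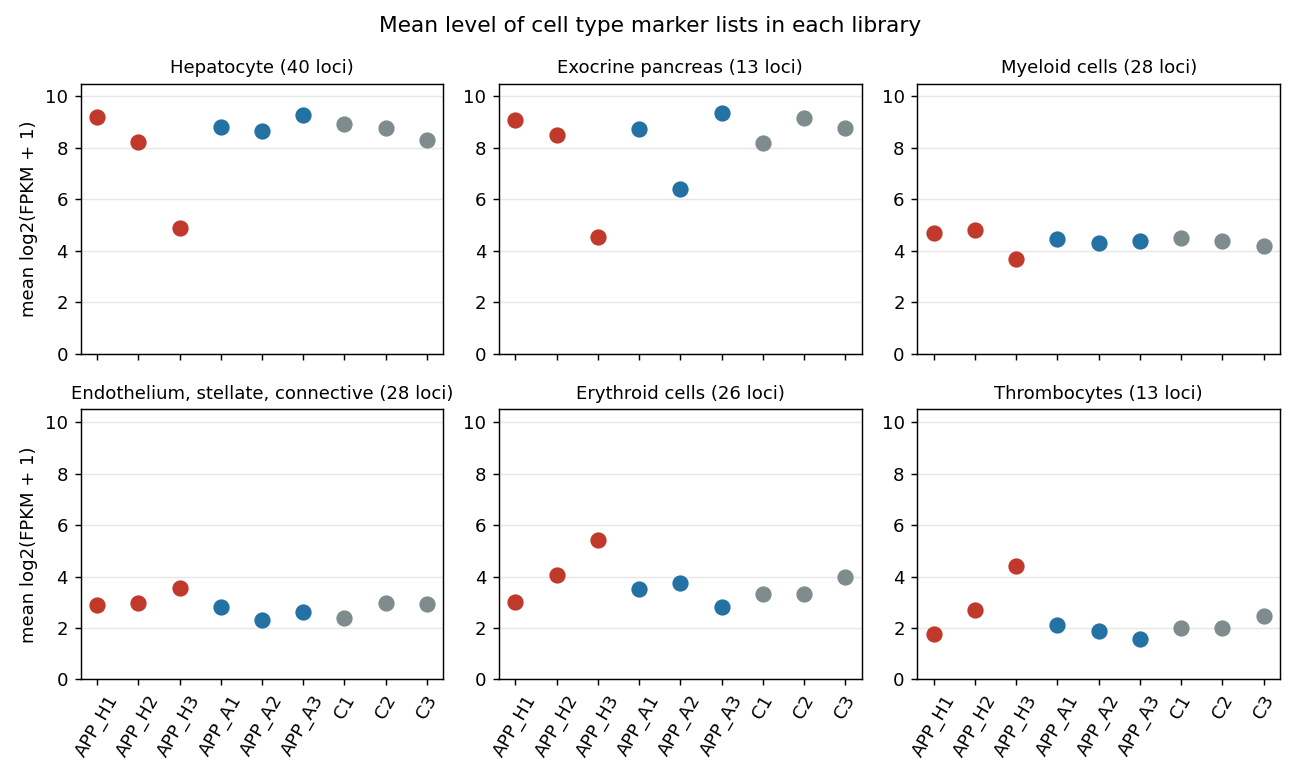
Mean log2(FPKM + 1) of 6 cell type marker lists (y axis) in each of the 9 libraries (x axis; APP_H red, APP_A blue, C grey; 1 point per library). APP_H3 is the lowest point for hepatocyte (4.88) and exocrine pancreas (4.54) markers and the highest for erythroid (5.40) and thrombocyte (4.39) markers.

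With all 6 libraries, 74 loci were DE between APP_H and APP_A (0.410% of those tested), 38 higher and 36 lower. Without APP_H3, 84 were DE (0.465%), 60 higher and 24 lower, and 38 loci were DE both ways. All but 1 in each fit had no gene symbol. The exception was fkbp5 with all 6 libraries and c8a without APP_H3. At an unadjusted p below 0.05, 4.31% of the genes were higher and 4.01% lower in APP_H with all 6 libraries, and 4.72% and 3.83% without APP_H3. Every APP_H value lay above every APP_A value in 7.83% of the genes and below in 7.53%. Without APP_H3 these shares were 13.4% and 11.8%. The counts for gene groups given further on are read against these shares.

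The gene with a symbol that was DE with all 6 libraries was fkbp5 (XLOC_015626, scaffold GL831197.1 from 2032901 to 2046489), a co-chaperone of Hsp90 that restrains the glucocorticoid receptor and is itself induced by glucocorticoids in mammals. It had 126, 177 and 120.0 FPKM in APP_H and 5.78, 10.1 and 9.77 FPKM in APP_A. The means were 141 ± 31.2 FPKM in APP_H and 8.54 ± 2.40 FPKM in APP_A (SD, n = 3 each), and the groups lay far apart. The C libraries had 21.4, 49.4 and 4.40 FPKM, lower than every APP_H library. The log2 fold change was 3.91 ± 0.47 (SE; adjusted p = 0.0419), 15.0-fold on the (FPKM + 1) scale. Without APP_H3 it was 4.01 ± 0.40 (adjusted p = 0.0507), of the same size but no longer DE. The call was also lost with any other library left out, with quantile normalization (adjusted p = 0.0632), with no filter on low values (0.0771) and with C in the fit (0.149).

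The gene with a symbol that was DE without APP_H3 was c8a (XLOC_022702, scaffold GL831264.1 from 1078800 to 1088859), which encodes the alpha chain of complement C8, a part of the membrane attack complex. It was listed at 0, 0 and 7.79 FPKM in APP_H, against 279, 249.6 and 346 FPKM in APP_A and 309, 281 and 179.7 FPKM in C. All 3 APP_H libraries were far below the other 6. The adjusted p was 0.00434 without APP_H3 and 0.0629 with all 6 libraries, where it was 0.0224 with C in the fit. Without APP_H3, c8a was at 0 in the whole APP_H group. It passed the filter through the APP_A libraries, where it is high, which limits what the adjusted p without APP_H3 can show. No fold change is given because the gene was listed at 0, and apoa1a, just described, was listed at 0 in libraries of all 3 groups. Whether the zeros of c8a stem from the quantification was not tested.

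Most DE loci were short, unannotated and listed at 0 in a whole group. Of the 74 DE loci with all 6 libraries, 36 were at 0 in all APP_A libraries, 25 at 0 in all APP_H libraries and 13 in neither. The 61 at 0 in a whole group passed the filter only because all 3 libraries of the other group reached 1 FPKM. The filter thus admitted them through the group where they are high, which limits what their adjusted p can show. Without APP_H3, 78 of the 84 DE loci were at 0 in a whole group, 57 in APP_A and 21 in APP_H, c8a among the latter. The same limit holds for them. The median span of the 74 loci on the scaffold was 251 bp, and 63 spanned less than 1000 bp. The median span was 5038 bp over all loci tested, of which 26.4% spanned less than 1000 bp. XLOC_002247, a locus of 379 bp, had 2689, 2187 and 247 FPKM in APP_H and was listed at 0 in all APP_A and all C libraries (adjusted p = 0.0245 with all 6 libraries). XLOC_032557 (185 bp) had 1237, 2441 and 526 FPKM in APP_H, 0 in all APP_A libraries, and 749, 62.2 and 624 FPKM in C. It was listed above 0 in all 6 libraries of the other diets and in no APP_A library. XLOC_009047 (158 bp) was at 0 in APP_H and at 1433, 472 and 2588 FPKM in APP_A, and XLOC_025417 (152 bp) was at 0 in APP_H and at 3104, 243 and 343 FPKM in APP_A. In C, XLOC_009047 had 0, 0 and 1936 FPKM and XLOC_025417 had 991, 0 and 331 FPKM. XLOC_001255 (185 bp) was DE only without APP_H3. It had 0, 0 and 647 FPKM in APP_H and 877, 682 and 454 FPKM in APP_A, so APP_H3 alone closed the difference.

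Among genes with a symbol that were above 0 in all 6 libraries (8882), 635 were higher and 733 lower in every APP_H than in every APP_A library. The 12 with the widest gap on each side are described here. All were chosen for not overlapping, and none but fkbp5 was DE. A gene below 1 FPKM in every library of a group passed the filter only through the other group. Among others, this holds for adrb2b and tk1 here and for irs2b, per2, tlr2 and ctsh (XLOC_000814) further on. After fkbp5, the widest gap upward was that of nt5dc2, a member of a family of proteins with a nucleotidase domain. It had 80.8, 85.2 and 287 FPKM in APP_H and 19.0, 27.3 and 17.6 FPKM in APP_A, a log2 fold change of 2.53 ± 0.67 (adjusted p = 0.368) with all 6 libraries and 1.94 ± 0.36 without APP_H3. ptpn11b, a copy of the gene for the tyrosine phosphatase SHP2, had 4.82, 3.91 and 7.54 FPKM in APP_H and 1.5, 1.58 and 1.16 FPKM in APP_A. All 3 APP_H libraries were at least as high as 3.91 FPKM, and neither the APP_A nor the C libraries passed 1.78 FPKM. The mannose receptor gene mrc1b, a marker of macrophages and sinusoidal endothelium, had 7.11, 11.1 and 18.6 FPKM in APP_H and 3.59, 2.80 and 3.61 FPKM in APP_A. coq7, needed to make coenzyme Q, had 8.96, 5.54 and 12.4 FPKM in APP_H and 2.51, 1.82 and 2.34 FPKM in APP_A. Its C libraries (8.39, 9.63 and 6.48 FPKM) lay with APP_H, so the APP_A libraries were the low ones. DTX4, an E3 ubiquitin ligase of Notch signalling, had 3.85, 4.39 and 3.86 FPKM in APP_H and 1.32, 1.01 and 1.60 FPKM in APP_A. In mid1ip1l, parvb and cipcb, APP_H3 was the highest library (28.1, 22.5 and 18.2 FPKM). mid1ip1l, whose mammalian relative binds acetyl-CoA carboxylase, had log2 fold changes of 2.50 with and 1.80 without that library. The focal adhesion gene parvb had 1.93 and 1.17, and cipcb, a copy of the CLOCK-interacting repressor gene, 2.12 and 1.61. The other upward genes, zgc:92335, si:ch211-117l17.5 and tk1, had log2 fold changes of 1.77, 1.83 and 1.39.

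The widest gap downward was that of epdr1, an ependymin-related gene. It had 4.48, 1.82 and 1.08 FPKM in APP_H, 18.6, 24.9 and 30.6 FPKM in APP_A, and 25.1, 4.44 and 31.6 FPKM in C. Its log2 fold change was -2.99 ± 0.47 (adjusted p = 0.115) with all 6 libraries and -2.68 ± 0.43 (adjusted p = 0.175) without APP_H3. The membrane protein gene tmem234 had 3.69, 2.98 and 3.03 FPKM in APP_H and 14.3, 16.8 and 13.4 FPKM in APP_A, with a log2 fold change of -1.90 ± 0.30 (adjusted p = 0.115). Its libraries were tight within each group, and C (9.22, 5.12 and 7.60 FPKM) lay between them. itga6a, an integrin subunit that binds laminin, had 3.42, 8.02 and 1.04 FPKM in APP_H and 24.2, 24.7 and 21.4 FPKM in APP_A. Its C libraries (4.80, 11.5 and 5.12 FPKM) lay nearer to APP_H than to APP_A. The same placing of C held for urm1, a ubiquitin-like modifier of transfer RNA thiolation, with 0.73, 3.97 and 3.20 FPKM in APP_H, 12.7, 9.28 and 8.94 FPKM in APP_A, and 1.88, 2.46 and 1.54 FPKM in C. The zinc transporter gene slc39a13 was placed otherwise, with 2.40, 5.40 and 3.19 FPKM in APP_H, 11.7, 17.1 and 13.1 FPKM in APP_A, and 13, 15.3 and 14.3 FPKM in C. Here APP_H stood below both other groups. adrb2b, a copy of the beta-2 adrenergic receptor gene, had 0.38, 0.55 and 0.25 FPKM in APP_H and 2.29, 3.03 and 2.18 FPKM in APP_A. The dicarboxylate transporter gene slc13a3 (12.7, 12.5 and 0.34 FPKM in APP_H) and the cytochrome P450 gene cyp2n13 (66.3, 37.0 and 4.07 FPKM) were lowest in APP_H3, against APP_A ranges of 30.2 to 42.0 and 135 to 153 FPKM. Their log2 fold changes of -2.53 and -2.64 were -1.42 and -1.53 without APP_H3. The other downward genes were zgc:56576, ufc1, mpp6a and the locus named SNORA7, with log2 fold changes of -1.68, -1.75, -1.30 and -2.38.

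**Figure D2:**
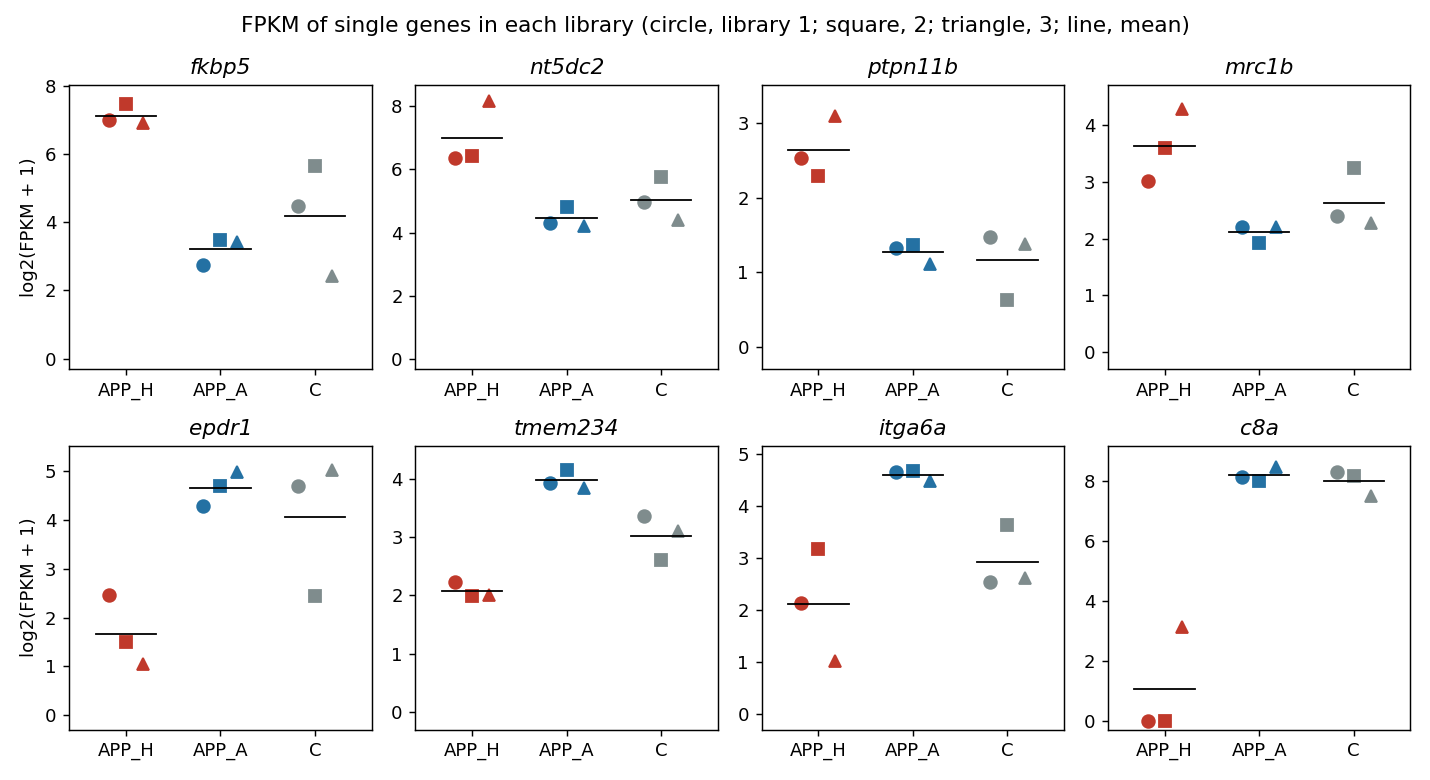
log2(FPKM + 1) (y axis) of 8 genes in the APP_H (red), APP_A (blue) and C (grey) libraries; each point is 1 library and the line is the group mean. APP_H and APP_A do not overlap in any of the 8; of the genes shown, fkbp5 was DE with all 6 libraries (adjusted p = 0.0419) and c8a without APP_H3 (adjusted p = 0.00434).

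Lists of genes were then described by their median log2 fold change and by the members whose groups did not overlap. Over all genes tested, the median was -0.00 with all 6 libraries and 0.04 without APP_H3. The lists of hepatocyte work depended on that library. Coagulation and acute phase genes had a median of -1.43 with all 6 libraries and 0.09 without APP_H3, complement -1.36 and 0.08, bile acid synthesis and export -1.02 and -0.05, and amino acid breakdown -0.86 and 0.06. The median of the hepatocyte markers themselves moved likewise, with -1.45 and -0.00. Lists farther from 0 on the same side both ways included ER chaperones and the unfolded protein response (-0.75 and -0.32), fatty acid synthesis (-0.69 and -0.30) and desaturation and elongation of polyunsaturated fatty acids (PUFA; -0.96 and -0.30) below 0. Above 0 they included inflammatory genes (0.43 and 0.43), the lysosome and phagosome (0.28 and 0.33), antigen presentation (0.67 and 0.41), DNA replication and mitosis (0.37 and 0.28), and the interferon, B cell and T cell lists. No list holds a DE gene other than c8a in complement, and limma's unadjusted p is given for the lists described next.

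The ER list had the lowest median of the 22 lists without APP_H3. Of its 51 loci, 9 (17.6%, against 7.53% of all genes) were lower in every APP_H than in every APP_A library and 1 was higher. Without APP_H3, 10 (19.6%, against 11.8%) were lower and 2 higher. At an unadjusted p below 0.05, 6 were lower and 0 higher, and without APP_H3 1 was lower and 0 higher. Negative fold changes were found in 43 of 51 loci with all 6 libraries and 37 of 51 without APP_H3. HSPA5, the main Hsp70 of the ER (BiP), had 34.0, 43.1 and 16.3 FPKM in APP_H, against 51.2, 223 and 303 FPKM in APP_A and 72.7, 33.9 and 160.1 FPKM in C. hsp90b1, the Hsp90 of the ER (GRP94), had 32.1, 35.0 and 14.7 FPKM in APP_H, against 51.6, 163 and 199 FPKM in APP_A and 212, 56.0 and 180.3 FPKM in C. hyou1, an exchange factor for BiP, had 5.88, 7.06 and 4.52 FPKM in APP_H and 9.88, 33.1 and 42.5 FPKM in APP_A. In these genes APP_A1 lay closest to APP_H and APP_A2 and APP_A3 were the high libraries. The log2 fold changes were -2.35 ± 0.85 for HSPA5 (adjusted p = 0.555), -2.17 ± 0.73 for hsp90b1 (adjusted p = 0.527) and -1.91 ± 0.61 for hyou1 (adjusted p = 0.504). erp44, which retains unfolded proteins in the early secretory pathway, was tighter, with 5.82, 6.33 and 5.37 FPKM in APP_H and 11.1, 18.8 and 19.0 FPKM in APP_A. Its log2 fold change was -1.31 ± 0.37 with all 6 libraries and -1.26 ± 0.35 without APP_H3 (adjusted p = 0.419 and 0.460). The disulfide isomerase genes pdia4, pdia5 and pdia6, derl1 of ER-associated degradation and mydgf were also lower in every APP_H library. The member above was atf4a, a transcription factor of the stress response, with 41.6, 44.0 and 51.1 FPKM in APP_H and 39.9, 37.5 and 35.1 FPKM in APP_A.

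Of 23 loci of the cytosolic heat shock response, 4 (17.4%, against 7.53% of all genes) were lower and 2 (8.70%, against 7.83%) higher in every APP_H library. Without APP_H3, 5 (21.7%, against 11.8%) were lower and 2 (8.70%, against 13.4%) higher. With all 6 libraries 3 were lower and 0 higher at an unadjusted p below 0.05, and without APP_H3 1 and 0. The median was -0.20 with all 6 libraries and -0.07 without APP_H3. fkbp4, the Hsp90 co-chaperone that is the close relative of fkbp5, had 3.87, 4.97 and 4.52 FPKM in APP_H, against 8.68, 10.9 and 8.51 FPKM in APP_A and 10.2, 7.47 and 7.29 FPKM in C. The 3 APP_H libraries of fkbp4 lay below all 6 others. Its log2 fold change was -0.93 ± 0.30 (adjusted p = 0.504), and without APP_H3 -0.94 ± 0.27. The mitochondrial chaperonin hspd1 had 4.55, 4.18 and 1.91 FPKM in APP_H and 6.33, 13 and 8.94 FPKM in APP_A. The constitutive Hsp70 hspa8 overlapped between groups, with 566, 449 and 477 FPKM in APP_H and 417, 510.2 and 518 FPKM in APP_A.

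Of the 25 circadian clock loci, 6 (24.0%) were lower in every APP_H library and 2 (8.00%) were higher. Without APP_H3 the counts were 8 and 3. At an unadjusted p below 0.05, 5 were lower and 1 higher, and without APP_H3 5 were lower and 2 higher. nfil3 and nfil3-5, copies of a repressor that binds D-box elements, were among the lower ones. nfil3-5 had 0.67, 1.02 and 1.54 FPKM in APP_H and 2.78, 5.94 and 6.54 FPKM in APP_A, and nfil3 had 5.15, 0.88 and 0.40 FPKM in APP_H and 7.91, 10.6 and 11.5 FPKM in APP_A. Their log2 fold changes were -1.51 ± 0.37 and -2.11 ± 0.60 (adjusted p = 0.328 and 0.429). tefa and tefb, copies of an activator that binds the same element, were on the other side. tefb had 4.42, 8.71 and 34.3 FPKM in APP_H and 1.72, 1.64 and 2.21 FPKM in APP_A, with a log2 fold change of 2.11 ± 0.71 that was 1.35 ± 0.34 without APP_H3. tefa had 8.23, 17.8 and 57.6 FPKM in APP_H and 7.19, 6.91 and 4.34 FPKM in APP_A. Of the nuclear receptors that activate clock genes, rorcb had 2.84, 2.30 and 4.33 FPKM in APP_H and 6.93, 9.21 and 7.36 FPKM in APP_A at XLOC_001544. A second locus named rorcb, XLOC_001242, overlapped between the groups. The period gene per2 had 0.84, 0.94 and 0.58 FPKM in APP_H and 1.77, 3.23 and 2.82 FPKM in APP_A. The repressor BHLHE40 (27.3, 12.8 and 2.86 FPKM in APP_H, 39.9, 36.7 and 35.4 FPKM in APP_A) and rorca were below too, with APP_H3 the lowest.

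**Figure D3:**
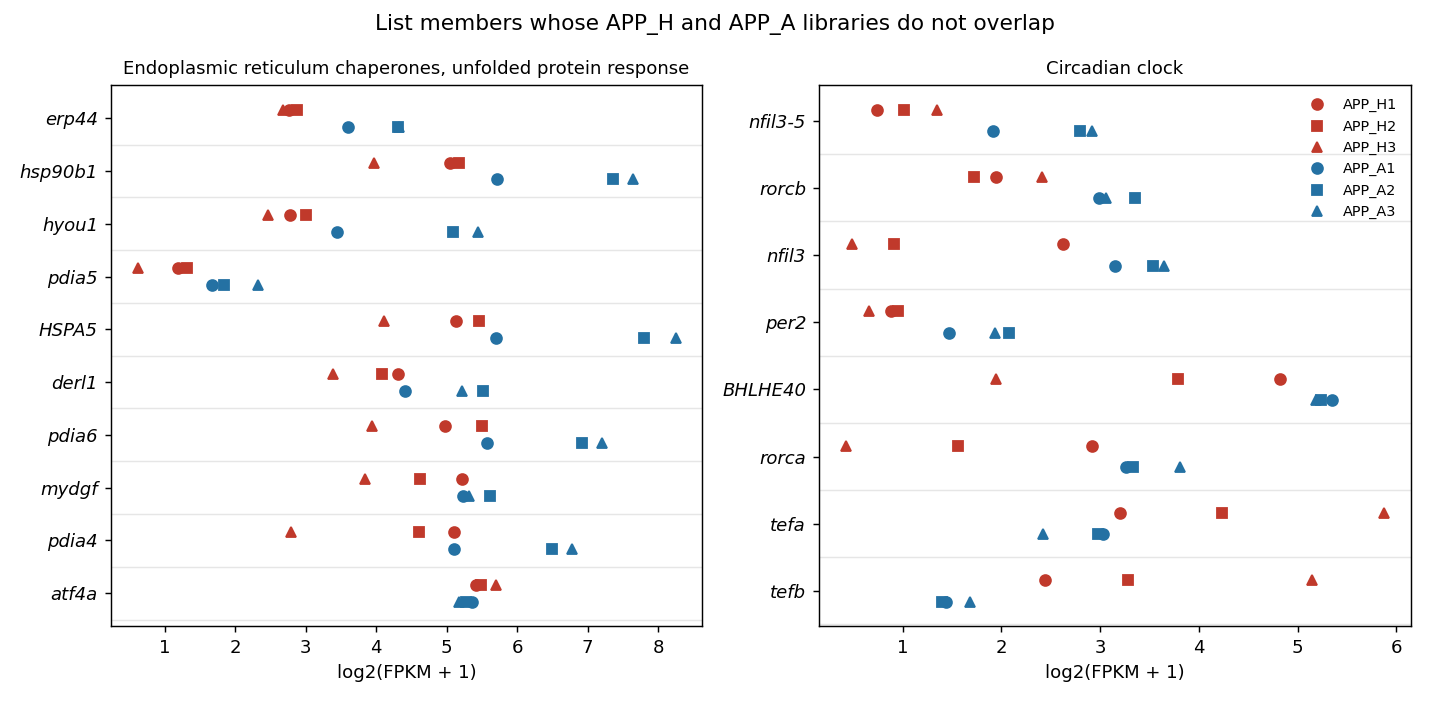
log2(FPKM + 1) (x axis) of the members of the ER list (left) and the circadian clock list (right) whose APP_H (red) and APP_A (blue) libraries do not overlap; each point is 1 library, its shape giving the library number. 9 ER genes lie lower in APP_H and atf4a higher, and 6 clock genes lie lower and tefa and tefb higher; none was DE.

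The members of the lipid lists that lay apart with all 6 libraries were, outside cholesterol synthesis, all lower in APP_H. The shares lower were 16.7% for fatty acid synthesis, 16.1% for beta-oxidation, 6.90% for lipoprotein and fatty acid transport and 18.75% for bile acids. Over all genes the share was 7.53%. Without APP_H3 the list shares were the same, against 11.8% of all genes. Of 12 fatty acid synthesis loci, 2 were lower in every APP_H library and 0 higher, with and without APP_H3, both copies of acetyl-CoA carboxylase, which makes malonyl-CoA. acaca had 3.17, 1.07 and 1.57 FPKM in APP_H, 4.24, 6.50 and 3.25 FPKM in APP_A, and 3.08, 1.22 and 1.48 FPKM in C. The APP_A libraries were the highest 3 of the 9. acacb had 2.27, 2 and 0.87 FPKM in APP_H and 4.32, 2.48 and 3.54 FPKM in APP_A. Of 11 loci of PUFA desaturation and elongation, 0 lay apart either way. Of 31 beta-oxidation loci, 5 were lower and 0 higher in every APP_H library, and without APP_H3 5 were lower and 2 higher. cpt2, which reforms acyl-CoA inside the mitochondrion, had 1.96, 1.65 and 1.05 FPKM in APP_H, 3.31, 5.43 and 5.65 FPKM in APP_A, and 4.87, 4.66 and 4.29 FPKM in C. All 3 APP_H libraries of cpt2 were below the other 6 libraries. Its log2 fold change was -1.17 ± 0.31 (adjusted p = 0.370) and -1.02 ± 0.30 without APP_H3 (adjusted p = 0.483). cpt1b, of the preceding step at the outer membrane, had 1.28, 1.31 and 0.60 FPKM in APP_H and 2.76, 2.21 and 2.02 FPKM in APP_A. acads and abcd3b were lowest in APP_H3 (4.37 and 11.9 FPKM), and without it their log2 fold changes were -0.62 and -0.50. Negative fold changes were found in 28 of the 31 loci with all 6 libraries and in 17 without APP_H3.

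Of 29 loci of lipoprotein and fatty acid transport, 2 were lower in every APP_H library, the fatty acid binding protein gene fabp7a and the transporter gene slc27a1a, and 0 were higher. Without APP_H3, 2 were lower and 4 higher, with 1 lower and 2 higher at an unadjusted p below 0.05. fabp7a had 56.2, 38.0 and 1.44 FPKM in APP_H, 104, 199.6 and 141 FPKM in APP_A, and 201, 313 and 147 FPKM in C. Its log2 fold change was -3.04 ± 1.27 with all 6 libraries and -1.61 ± 0.46 without APP_H3 (adjusted p = 0.608 and 0.478). Of 16 loci of bile acid synthesis and export, 3 were lower and 0 higher, and 3 and 1 without APP_H3. AKR1D1, a reductase of bile acid synthesis, was lower at one of its 2 loci, XLOC_009325, with 95.7, 45.7 and 2.01 FPKM in APP_H and 128, 106 and 104 FPKM in APP_A. The sterol exporters abcg5 and abcg8 lie on the same stretch of a scaffold, so their reads may have been split. abcg8 had 6.77, 1.84 and 0.17 FPKM in APP_H and 12.3, 8.20 and 7.53 FPKM in APP_A, and abcg5 had 5.08, 0.63 and 0.20 FPKM in APP_H and 5.63, 5.35 and 5.50 FPKM in APP_A. cyp7a1, the rate-limiting enzyme of bile acid synthesis, spanned 0.92 to 50.9 FPKM within APP_A and overlapped.

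Cholesterol biosynthesis leaned higher in APP_H only when APP_H3 was left out, as did glycolysis, described after it. The mean log2(FPKM + 1) of the cholesterol list was 5.49, 4.47 and 2.91 in APP_H and 4.21 to 4.46 in APP_A. APP_H1 was the high library, and APP_H2 was level with the highest APP_A library. Of 24 loci, 2 were higher in every APP_H library with all 6 libraries and 9 (37.5%, against 13.4% of all genes) without APP_H3, with 0 lower either way. At an unadjusted p below 0.05 the counts were 0 and 4 higher and 0 lower, and positive fold changes were found in 11 and 21 of the 24. fdps, a prenyl diphosphate synthase, and hmgcrb, a copy of HMG-CoA reductase, were those that did not overlap with all 6 libraries. fdps had 12.3, 5.03 and 6.85 FPKM in APP_H, 4.88, 2.28 and 2.92 FPKM in APP_A, and 2.12, 2.36 and 2.24 FPKM in C. Of the genes apart only without APP_H3, hmgcs1, the synthase of the first committed step, had 60.5, 25.4 and 10.1 FPKM in APP_H and 15.7, 10.8 and 15.8 FPKM in APP_A. sqlea, a squalene epoxidase, had 57.5, 20.4 and 3.35 FPKM in APP_H and 12.8, 9.54 and 11.1 FPKM in APP_A. The sterol-dependent regulator insig1 had 384, 430.1 and 25.7 FPKM in APP_H, 18.8, 100.3 and 124 FPKM in APP_A, and 334, 253 and 27.8 FPKM in C. In these 3 genes APP_H1 and APP_H2 were above every APP_A library and APP_H3 was not, and APP_H1 was the highest of all libraries for hmgcs1 and sqlea. Without APP_H3 the log2 fold changes were 1.44 ± 0.49 for hmgcs1, 1.55 ± 0.52 for sqlea and 2.69 ± 0.93 for insig1 (adjusted p = 0.552, 0.547 and 0.555).

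Of 42 loci of glycolysis, gluconeogenesis and glycogen, 4 (9.52%, against 7.83% of all genes) were higher and 1 (2.38%, against 7.53%) lower in every APP_H library. Without APP_H3, 12 (28.6%, against 13.4%) were higher and 1 (2.38%, against 11.8%) lower. Positive fold changes were found in 20 of the 42 with all 6 libraries and in 31 without APP_H3, and the medians were -0.08 and 0.37. pfkfb4b, which sets the level of fructose 2,6-bisphosphate, had 6.48, 14.8 and 60.3 FPKM in APP_H and 5.64, 3.82 and 1.95 FPKM in APP_A. The lactate dehydrogenase gene ldhba had 48.8, 70.9 and 79.9 FPKM in APP_H and 43.0, 23.1 and 40.2 FPKM in APP_A. pck1, the gatekeeper of gluconeogenesis, had 8.11, 28.4 and 3.60 FPKM in APP_H, 0, 1.71 and 2.02 FPKM in APP_A, and 85.5, 2.93 and 1.19 FPKM in C. Its groups did not overlap, but the highest value of all was in 1 C library. pygl, the liver glycogen phosphorylase, was the member below, with 33.7, 16.0 and 3.15 FPKM in APP_H and 34.3, 49.6 and 51.7 FPKM in APP_A. Of 52 loci of amino acid breakdown, 1 was higher (arg2) and 2 were lower (sardh and mccc1) in every APP_H library, and 5 were higher and 2 lower without APP_H3. Negative fold changes were found in 49 of the 52 with all 6 libraries and in 23 without APP_H3. sardh, of sarcosine oxidation, had 16.9, 5.94 and 1.16 FPKM in APP_H and 20.8, 22.5 and 36.3 FPKM in APP_A. The mitochondrial arginase arg2 was low throughout, with 2.14, 3.06 and 2.28 FPKM in APP_H and 1.32, 1.32 and 1.25 FPKM in APP_A.

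In the insulin-like growth factor (IGF) axis, 2 of 23 loci were higher (mtor and foxo3b) and 2 lower (irs2b and stat5a) in every APP_H library, and 5 and 3 without APP_H3. irs2b, a copy of an adaptor that carries the insulin signal, had 0.22, 0.40 and 0.13 FPKM in APP_H, 1.62, 1.61 and 1.61 FPKM in APP_A, and 1.56, 0.95 and 0.83 FPKM in C. It was thus near the filter limit in APP_A and below it in APP_H, with a log2 fold change of -1.07 ± 0.23 (adjusted p = 0.25), and without APP_H3 the adjusted p was 0.346. igf1, the liver's main growth hormone target, had 193, 77.0 and 3.05 FPKM in APP_H and 197, 150.2 and 183 FPKM in APP_A and overlapped.

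Of 24 loci of cytochrome P450 and conjugation enzymes, 4 were lower and 1 (sult6b1) was higher in every APP_H library, and 4 and 2 without APP_H3. The shares were 16.7% lower and 4.17% higher, against 7.53% and 7.83% of all genes. Without APP_H3 they were 16.7% and 8.33%, against 11.8% and 13.4%. Those lower at an unadjusted p below 0.05 were 3, and 2 without APP_H3, with 0 higher either way. cyp2n13 was described with the widest gaps. cyp26a1, which breaks down retinoic acid, had 17.9, 9.65 and 0.17 FPKM in APP_H and 23.6, 53.3 and 21.3 FPKM in APP_A. cyp3a65 was lower at a locus that overlaps others of the same name, so its value is uncertain. Antioxidant and glutathione enzymes had 1 of 44 loci above (keap1a) and 1 below (gstt1a), and 3 above and 1 below without APP_H3. gstt1a, a glutathione transferase, was listed at 0, 595 and 42.6 FPKM in APP_H, against 951, 1265 and 1019.7 FPKM in APP_A and 1483, 1193 and 995 FPKM in C. All 3 APP_H libraries were below the other 6, with a wide spread among themselves.

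Apart from c8a, the complement list of 19 loci held 2 that were higher in every APP_H library, c1qa and c1qc, which encode chains of C1q and are made by macrophages. Without APP_H3, 3 were higher. The only lower locus of the list, with and without APP_H3, was c8a. c1qc had 46.7, 74.6 and 42.3 FPKM in APP_H, 32.9, 22.8 and 36.8 FPKM in APP_A, and 37.0, 43.0 and 44.4 FPKM in C. In the coagulation and acute phase list of 35 loci, 1 was higher and 1 lower, and 2 and 1 without APP_H3. The iron hormone gene hamp had 121, 15.6 and 11.6 FPKM in APP_H, 1.08, 11.5 and 6.13 FPKM in APP_A, and 4.25, 6.76 and 6.32 FPKM in C. APP_H1 was the high library, and APP_H3 was just above APP_A2. The chemotactic protein gene LECT2 was lower at XLOC_013057 and overlapped at its far more abundant locus XLOC_017176.

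Lysosomal and phagocytic genes leaned higher with and without APP_H3. Of 61 loci, 11 (18.03%, against 7.83% of all genes) were higher and 0 lower in every APP_H library. Without APP_H3, 16 (26.2%, against 13.4%) were higher and 1 lower. At an unadjusted p below 0.05, 6 were higher and 0 lower, and without APP_H3 4 were higher and 0 lower. Positive fold changes were found in 49 and 48 of the 61. The mean log2(FPKM + 1) of the list overlapped between the doses, with 3.62, 4.14 and 3.94 in APP_H and 3.70, 3.30 and 3.40 in APP_A. APP_H1 lay below APP_A1. mrc1a, a second mannose receptor gene, had 35.7, 87.1 and 189 FPKM in APP_H, 22.5, 13.1 and 9.27 FPKM in APP_A, and 0.67, 9.20 and 57.8 FPKM in C. Its log2 fold change was 2.50 ± 0.75 with all 6 libraries and 1.92 ± 0.59 without APP_H3 (adjusted p = 0.452 and 0.504). On the log2 scale the C libraries alone spanned more than the distance between the doses. The acid hydrolase genes glb1, man2b1 and neu1 were higher by less. glb1, the lysosomal beta-galactosidase, had 3.41, 5.58 and 3.38 FPKM in APP_H, 2, 1.1 and 1.26 FPKM in APP_A, and 1.52, 2.31 and 1.94 FPKM in C. All 3 APP_H libraries of glb1 were above the other 6, with a log2 fold change of 1.05 ± 0.31 (adjusted p = 0.440). neu1 was higher in every APP_H than in every APP_A library at 1 of its 2 loci, XLOC_013926. cybb and cyba, which encode the membrane subunits of the phagocyte NADPH oxidase, were both higher in every APP_H library. cybb had 3.86, 5.22 and 11.2 FPKM in APP_H and 3.48, 2.66 and 2.40 FPKM in APP_A. The protease gene ctsh had 3.12, 3.34 and 40.8 FPKM in APP_H and 0.59, 0 and 0.45 FPKM in APP_A at XLOC_000814, and overlapped at its other locus.

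Inflammatory genes showed the same side. Of 54 loci, 10 (18.5%) were higher and 3 (5.56%) lower in every APP_H library, and without APP_H3 13 (24.1%) were higher and 5 (9.26%) lower. Only 2 were higher and 0 lower at an unadjusted p below 0.05, and 3 and 0 without APP_H3. Positive fold changes were found in 40 of 54 either way. The list mean of log2(FPKM + 1) overlapped here too, with 2.54, 3.37 and 3.26 in APP_H and 2.86, 2.39 and 2.52 in APP_A. The transcription factor gene stat3 had 28.2, 29.8 and 23.3 FPKM in APP_H, 14.9, 10.0 and 18.3 FPKM in APP_A, and 13.1, 10.1 and 16.4 FPKM in C. The NF-kB subunit gene rela had 22.6, 21.7 and 23.0 FPKM in APP_H, 17.4, 13 and 18.6 FPKM in APP_A, and 18.7, 16.6 and 14.4 FPKM in C. In both genes APP_H was above all 6 other libraries, by log2 fold changes of 0.90 ± 0.42 for stat3 and 0.45 ± 0.38 for rela (adjusted p = 0.628 and 0.723). The B cell survival factor gene tnfsf13b had 2.35, 4.52 and 12.3 FPKM in APP_H and 1.53, 1.05 and 1.39 FPKM in APP_A. tnfaip3, a brake on NF-kB signalling, had 2.02, 5.70 and 2.78 FPKM in APP_H and 1.76, 1.84 and 1.40 FPKM in APP_A. ikbkb, il6st and il10rb were above as well, and chuk at 1 of its 2 loci. Below were IRAK4, TLR5 and tnfsf12, each lowest in APP_H3. TLR5, the flagellin receptor, had 12.0, 12.0 and 2.78 FPKM in APP_H and 12.4, 12.7 and 13.6 FPKM in APP_A, a narrow gap outside APP_H3.

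**Figure D4:**
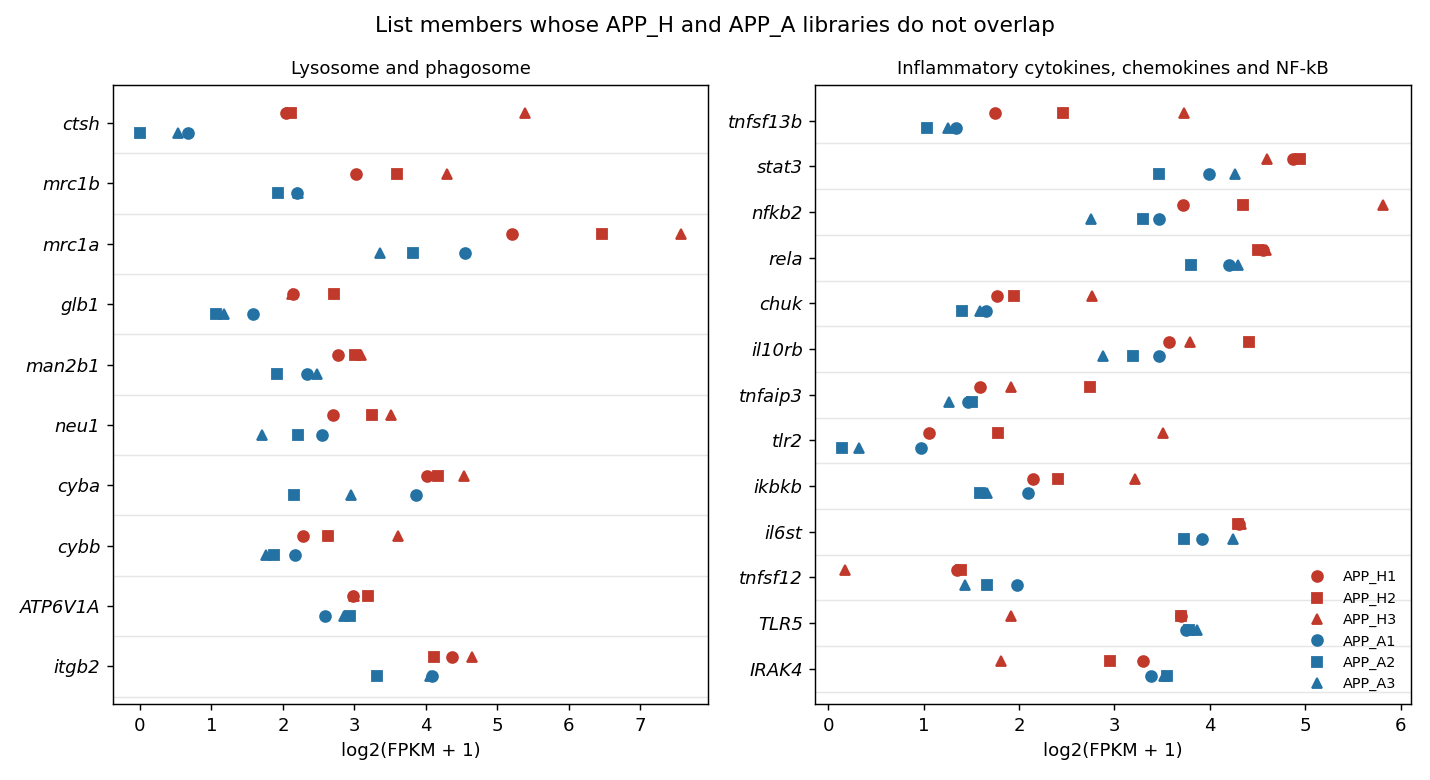
log2(FPKM + 1) (x axis) of the members of the lysosome and phagosome list (left) and of the inflammatory list (right) whose APP_H (red) and APP_A (blue) libraries do not overlap; each point is 1 library, its shape giving the library number. The 10 lysosomal members shown (of 11) and 10 of the 13 inflammatory members lie higher in APP_H, and the other 3 lie lower; none was DE.

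Some markers of leukocytes and connective tissue were higher in APP_H as well. Of 28 myeloid marker loci, 7 were higher and 2 lower (LYZ at XLOC_029816 and LECT2 at XLOC_013057) in every APP_H library, and 8 and 2 without APP_H3. Negative fold changes were found in 11 of the 28 with all 6 libraries and in 5 without APP_H3. The mean log2(FPKM + 1) of the 28 was 4.71, 4.79 and 3.67 in APP_H and 4.32 to 4.45 in APP_A. APP_H3 was the lowest of the 9 libraries for this mean, unlike for the lysosomal list. Its members did not move together in APP_H3. The most abundant, LECT2 at XLOC_017176 and LYZ at XLOC_004326, had 292 and 112 FPKM there, against 9051 to 15614 and 2675 to 4470.5 FPKM in APP_A. On the other side, lcp1 and grna had 25.7 and 27.85 FPKM in APP_H3, against 6.38 to 18.3 and 4.56 to 8.34 FPKM in APP_A. The mean is thus no measure of the number of myeloid cells. csf1rb, a copy of the macrophage growth factor receptor gene, had 14.6, 27.8 and 14.5 FPKM in APP_H, 6.71, 9.25 and 10.1 FPKM in APP_A, and 20.0, 11.9 and 9.71 FPKM in C. The other copy, csf1ra, overlapped, with 3.93, 9.27 and 3.24 FPKM in APP_H and 4.86, 4.44 and 6.06 FPKM in APP_A. Of 28 loci for endothelium, stellate cells and connective tissue, 6 (21.4%, against 7.83% of all genes) were higher and 0 lower. Without APP_H3, 8 (28.6%, against 13.4%) were higher and 1 lower. The mean log2(FPKM + 1) of this list was 2.90, 2.95 and 3.55 in APP_H and 2.30 to 2.83 in APP_A. In C it was 2.38, 2.98 and 2.91, which overlapped with APP_H. mmp2, a matrix protease, had 11.8, 16.2 and 25.8 FPKM in APP_H, 10.2, 4.06 and 5.88 FPKM in APP_A, and 6.07, 14.6 and 12.1 FPKM in C. Of 35 myeloid loci in the table, 5, 4 and 2 were listed at 0 in APP_H and 4, 5 and 3 in APP_A, and of 45 connective tissue loci 6, 3 and 3 in APP_H and 3, 5 and 6 in APP_A. The part of cell makeup in the lysosomal and inflammatory values was not tested. Of 15 B cell loci, 2 were higher and 0 lower, of 20 T and natural killer cell loci 2 and 2, and of 21 antigen presentation loci 1 and 0. The shares higher were 13.3%, 10.0% and 4.76%, against 7.83% of all genes. Without APP_H3 the counts were 2 and 0, 3 and 2, and 1 and 0, in the same order. Their medians were 0.97, 0.72 and 0.67 with all 6 libraries and 0.69, 0.66 and 0.41 without APP_H3. In the mean log2(FPKM + 1) of each of these lists, APP_H1 lay below APP_A1. cd79a, of the B cell receptor, had 7.25, 9.32 and 57.8 FPKM in APP_H, 6.65, 0.13 and 2 FPKM in APP_A, and 4.55, 1.91 and 10.2 FPKM in C. The T cell list includes rorca and rorcb, already counted with the clock genes.

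The 24 interferon-induced antiviral loci had a median log2 fold change of 0.90 with all 6 libraries and 0.63 without APP_H3, but 0 of them were apart with all 6 libraries and 1 without APP_H3. Those higher at an unadjusted p below 0.05 were 2, and 1 without APP_H3, with 0 lower either way. rsad2, which encodes viperin, had 21.5, 306 and 179 FPKM in APP_H, 36.5, 10.2 and 2.68 FPKM in APP_A, and 20.5, 7.73 and 271 FPKM in C. xaf1 had 2.43, 8.93 and 8.49 FPKM in APP_H, 2.83, 0.93 and 1.07 FPKM in APP_A, and 2.35, 0.77 and 10.7 FPKM in C. In both genes the high libraries were APP_H2, APP_H3 and 1 of the 3 C libraries, so the level varied within groups as much as between them.

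Of 25 loci of DNA replication and mitosis, 5 (20.0%, against 7.83% of all genes) were higher and 3 (12.0%, against 7.53%) lower in every APP_H library. Without APP_H3, 6 (24.0%, against 13.4%) were higher and 4 (16.0%, against 11.8%) lower. tk1, the thymidine kinase of dividing cells, had 2.01, 4.30 and 2.78 FPKM in APP_H, 0.70, 0.23 and 0.61 FPKM in APP_A, and 0.85, 0.71 and 0.38 FPKM in C. cdk2, the kinase of entry into DNA synthesis, was on the other side with 4.66, 1.98 and 1.65 FPKM in APP_H, 11.4, 6.47 and 18 FPKM in APP_A, and 13.3, 6.89 and 9.14 FPKM in C. In each gene the APP_H libraries lay apart from the other 6. The log2 fold changes were 1.39 ± 0.32 for tk1 and -1.77 ± 0.50 for cdk2 (adjusted p = 0.277 and 0.424). Genes that every cell uses seldom lay apart. Of 72 ribosomal protein loci, 1 was higher and 0 lower in every APP_H library, of 69 oxidative phosphorylation loci 2 and 2, and of 34 proteasome loci 2 and 0. Without APP_H3 the counts were 2 and 0, 4 and 2, and 2 and 1, in the same order. Their medians were 0.08, -0.19 and 0.01 with all 6 libraries and 0.32, 0.07 and 0.02 without APP_H3. Ribosomal protein genes had positive fold changes in 49 of 72 loci with all 6 libraries and in 70 of 72 without APP_H3, by small amounts. Their mean log2(FPKM + 1) was 11.19, 10.10 and 9.81 in APP_H and 10.13 to 10.51 in APP_A. APP_H1 alone was thus above APP_A, and APP_H2 and APP_H3 were below every APP_A library.

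The genes that were measured again by PCR had been picked on these samples, so they are no independent set. The study called them DE by Cuffdiff in each of its group comparisons and reported broadly similar trends by PCR. Here their loci were matched by symbol and tested with limma on FPKM. The study does not name the NF-kB subunit it measured, so NFKB1 and nfkb2 are both counted. Of the 8 loci tested, none was DE. At an unadjusted p below 0.05 by limma, 1 was higher (tlr2) and 1 lower (hsp90b1, whose values are given with the ER list). Without APP_H3, 1 was higher (lpl) and 0 lower. Lipoprotein lipase (lpl), which frees fatty acids from circulating lipoproteins, had 99.2, 76.8 and 42.7 FPKM in APP_H, 10.7, 43.1 and 20.4 FPKM in APP_A, and 19.1, 23.6 and 11.1 FPKM in C. APP_H1 and APP_H2 were the highest 2 libraries of the 9, and APP_H3 was level with APP_A2. The log2 fold change was 1.65 ± 0.68 with all 6 libraries and 1.99 ± 0.65 without APP_H3 (adjusted p = 0.601 and 0.539). tlr2, a receptor for bacterial lipoproteins, had 1.08, 2.44 and 10.4 FPKM in APP_H, 0.97, 0.11 and 0.25 FPKM in APP_A, and 0.58, 0.22 and 0.28 FPKM in C. nfkb2 had 12.1, 19.3 and 55.4 FPKM in APP_H, 10.1, 8.83 and 5.75 FPKM in APP_A, and 5.91, 6.95 and 17.4 FPKM in C. NFKB1 overlapped, with 2.46, 3.37 and 4.02 FPKM in APP_H and 3.71, 1.65 and 2.11 FPKM in APP_A. tlr2 and nfkb2 did not overlap between APP_H and APP_A and were highest in APP_H3. For nfkb2, C3 lay above APP_H1. The desaturase gene fads2 overlapped at both of its loci. XLOC_004890 had 444, 77.6 and 22.2 FPKM in APP_H and 469.9, 511 and 283 FPKM in APP_A, and XLOC_004889 had 142, 107 and 7.33 FPKM in APP_H and 172, 88.0 and 60.5 FPKM in APP_A. igf2, a growth factor gene, overlapped too, with 4.45, 5.18 and 0.84 FPKM in APP_H, 11.4, 2.51 and 8.44 FPKM in APP_A, and 45.0, 13.2 and 3.91 FPKM in C. Both fabp2 loci were below the filter, listed at 0 in every library but APP_A1, where 1 of them had 0.36 FPKM. The study describes its FABP2 as the liver-type fatty acid-binding protein, so it is uncertain whether these loci are the gene it measured. Relative to C, the study's sequencing had HSP90b1 lower in APP_A and higher in APP_H, and TLR2 raised more in APP_A. For both genes this is the opposite of the side found here. For LPL, IGF-2 and NF-kB the sides were the same. FADS2 was raised more in APP_H there, whereas both loci had negative fold changes here with all 6 libraries.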

How the data were processed

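Expression came from 1 table that the authors deposited, with an FPKM value per locus and library and no columns of comparisons. The study's methods name TopHat and Cufflinks, while the submitters' processing notes list Bowtie 0.12.2, HISAT2 2.0, StringTie 1.3.0 and the mouse build mm8. The tilapia build was not given in the sources used here. Zeros of abundant genes were kept. FPKM hides the read count of a locus, so no counting interval is given.

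Loci with FPKM of at least 1 in at least 3 of the 6 APP_H and APP_A libraries were compared on log2(FPKM + 1) with limma 3.58.1 (R 4.3.3; two-sided moderated test with intensity trend, Benjamini-Hochberg adjustment over all 18065 loci), once with all 6 libraries and once without APP_H3. limma was tested on simulated data. DE required an adjusted p below 0.05 and a log2 fold change of at least 1 in size. The comparison, members and 36 lists (from general knowledge) were chosen with earlier results of these data known.

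Named in the text are DE genes with a symbol, at most 2 unnamed loci per direction and fit, the 12 widest gaps each way, up to 3 non-overlapping members per list, genes named by the study and the most abundant markers; HSPA5, tefa, hspa8, cyp7a1, igf1, rsad2, xaf1 and others beyond that rule were chosen after their values were seen. Alternatives changed the pseudocount, filter, scaling, samples, replicate block, trend, array weights and zeros. Some members that the counts include are not reported here by name. Plots used matplotlib 3.10.9 (Python 3.11.15).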

Additional observations from a re-analysis of the deposited data

How the results depend on the processing

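The number of DE loci depended on loci listed at 0. With all 6 libraries (74 DE), it was 13 with no filter on low values, 37 with the C libraries in the fit, 0 with a zero taken as missing if the remaining libraries had a median of 10 FPKM or more (1487 at an unadjusted p below 0.05 by limma) and 0 among the 14347 loci above 0 in all 6 libraries (1222). The last pair was chosen after seeing the data. The first cannot call a locus at 0 in a whole group and at 10 FPKM or more in all libraries of the other, and the second cannot call any locus with a 0. fkbp5 then had adjusted p of 0.119 and 0.387. Array weights gave 3458, with weights of 0.248 for APP_H1, 39.1 for APP_H2 and 0.132 for APP_H3. The APP_H side of that fit thus rested almost wholly on APP_H2. Without APP_H3, array weights gave 83, with weights of 0.704 to 1.63. Leaving out 1 library gave 12 (without APP_A2) to 84 (without APP_H3), with 31 without APP_A3, 33 without APP_A1 and 33 without APP_H2. Starting without APP_H3 (84 DE), it was 159 with no filter, 0 with zeros missing (1586) and 0 among loci above 0 (1248), and 56 to 114 with a further library left out, where a lone APP_H library is assumed to vary like APP_A. Library numbers did not pair the samples: same-numbered APP_H and APP_A libraries had correlations of deviations of -0.067, -0.028 and -0.089. With the number as a replicate block 0 loci were DE with all 6 libraries (1127 at an unadjusted p below 0.05) and 0 without APP_H3 (1099).

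Every APP_H value was above every APP_A value in 678 loci and below in 689 at an FPKM of at least 5 (1271 and 979 without APP_H3), among fewer loci. Leaving out a library gave 1889 to 3597 above and 1880 to 3817 below and, starting without APP_H3, 3146 to 5843 and 2899 to 5276. Fewer libraries overlap less, but at the same number of libraries the counts were 3597 above and 3817 below without APP_H1, 2071 and 1928 without APP_H2, and 2418 and 2128 without APP_H3. Without APP_H1, 2994 loci had an unadjusted p below 0.05, against 1503 with all 6 libraries. The cause was not tested. fkbp5 had adjusted p from 0.0507 to 0.245 with 1 library left out. No DE gene with a symbol changed sign under any alternative. The read count behind each value is unknown, and 3 pools per group limit the precision. Negative fold changes of hepatocyte markers were found in 40 of 40 loci with APP_H3 and 21 of 40 without it.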

Other observations

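Because fkbp5 was the gene with a symbol that was DE, genes known in mammals to be induced by glucocorticoids were listed after its values had been seen, and the list is a description with no test. Of 18 loci, 4 (22.2%, against 7.83% of all genes) were higher in every APP_H than in every APP_A library (fkbp5, klf9, dusp1 and pck1). Lower was 1 (tsc22d3), a share of 5.56%, against 7.53%. Without APP_H3, 9 (50.0%, against 13.4%) were higher and 1 (5.56%, against 11.8%) lower. fkbp5, which prompted the list, is part of these higher counts and of the medians. The median log2 fold change was -0.02 with all 6 libraries and 1.15 without APP_H3. Negative fold changes were found in 9 of the 18 with all 6 libraries and in 2 without APP_H3. klf9, a transcription factor gene, had 22.6, 67.6 and 7.60 FPKM in APP_H, 5.67, 2.67 and 1.63 FPKM in APP_A, and 18.7, 12.5 and 0.90 FPKM in C. The phosphatase gene dusp1 had 15.9, 40.5 and 19.0 FPKM in APP_H, 6.57, 7.84 and 12.8 FPKM in APP_A, and 15.3, 20.9 and 4.52 FPKM in C. per1b, a period gene, had 9.21, 10.5 and 2.92 FPKM in APP_H, 1.81, 3.92 and 1.08 FPKM in APP_A, and 6.63, 9.45 and 0.89 FPKM in C. ddit4, an inhibitor of mTOR signalling, had 64.9, 256 and 2.86 FPKM in APP_H, 15.0, 25.5 and 18.8 FPKM in APP_A, and 104, 43.8 and 1.61 FPKM in C. tsc22d3, also known as GILZ, was on the other side, with 112, 102 and 64.6 FPKM in APP_H, 126, 192 and 143 FPKM in APP_A, and 159.7, 161 and 94.6 FPKM in C. In fkbp5, klf9, per1b and ddit4 the C libraries C1 and C2 were several-fold above C3.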
